A study of Homo sapiens with 18 samples.

Results

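Ribosomes are built in the nucleolus, where RNA polymerase I copies the ribosomal DNA and many factors cut, modify and fold the transcript while ribosomal proteins join it. Small nucleolar ribonucleoproteins (snoRNPs) guide the modifications: box C/D particles methylate ribose and box H/ACA particles isomerise uridine. Separate sets of assembly factors then complete the small (40S) and large (60S) subunits. The transcription factor MYC activates much of this programme, and cells of high-grade serous ovarian cancer often carry extra copies of its gene. The gene set described here is a fixed list of 42 genes, MYC and 41 genes of ribosome biogenesis, found by name among the 58288 gene IDs of the count files. All 42 were found and all passed the filter on low counts; the lowest count of any of them in any library was 444.

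The RNA came from 18 libraries of 3 cell lines, Kuramochi, OVCAR4 and OVCAR8, which stood for high-grade serous ovarian cancer (HGSOC). For each line, 3 libraries were from GFP-labeled cancer cells taken by fluorescence-activated sorting after 48 h on a 3D omentum culture, and 3 were from cells of the same line grown on plastic and sham sorted. The 3D culture was made of primary human omental fibroblasts in collagen I under a layer of primary mesothelial cells. The passages given were 35 to 45 for Kuramochi, 45 to 55 for OVCAR4 and 30 to 40 for OVCAR8, and the study counts 3 independent experiments per line. No labels name a batch.

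Total counts per library were 28415048 to 43142540. Many markers of the other cell types of the culture rose on 3D, and whether their RNA came from those cells or from the cancer cells was not tested. Of 11 fibroblast markers, 9 rose on 3D in Kuramochi, 11 in OVCAR4 and 8 in OVCAR8, and their summed level was 583 to 1388 CPM (counts rescaled so that libraries have the same size, with TMM factors) in 3D libraries of Kuramochi against 347 to 444 on plastic. The sums were 141 to 1213 CPM in OVCAR4 3D libraries against 21.2 to 21.6 on plastic, and 704 to 2958 in OVCAR8 3D libraries against 662 to 726 on plastic. Of 7 mesothelial markers tested, 4 rose and 1 fell in Kuramochi, 5 rose in OVCAR4 and 3 rose in OVCAR8. The summed level of the 8 listed was 218 to 256 CPM on 3D against 258 to 398 on plastic in Kuramochi, 127 to 137 against 106 to 173 in OVCAR4, and 157 to 208 against 116 to 137 in OVCAR8. DCN and POSTN, from the fibroblast list, were at 0 in every plastic library and above 0 in every 3D library. The study names both among the top genes changed in the cancer cells on 3D culture. Of 8 markers of HGSOC cells, 1 rose on 3D in Kuramochi, 2 rose and 2 fell in OVCAR4, and 0 passed the test in OVCAR8. On plastic 7 of the 8 were lower in OVCAR8 than in OVCAR4, where 35.3% of all genes were. In OVCAR8, 1 of the 8 was at 0 in all 3D libraries and 1 in all plastic libraries. PAX8 was at 443 CPM or more in all Kuramochi libraries, 168 or more in OVCAR4 and 55.7 or more in OVCAR8. EPCAM was at most 5.65 CPM in Kuramochi and at least 343 in OVCAR4. In each of OVCAR4 and OVCAR8, 1 3D library stood apart from the others of its group: OVCAR4 replicate 42 and OVCAR8 replicate 4, whose fibroblast sums were the lowest of their groups. The other 3D libraries of those lines were close to each other, with a chi-square (divided by its degrees of freedom) of 1.89 between OVCAR4 replicates 4 and 6 and of 2.60 between OVCAR8 replicates 61 and 62, against 2.93 for plastic replicates 4 and 62 of OVCAR8 and 8.64 to 102 for all other pairs within a group.

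Of the 42 genes, 19 fell on 3D culture in Kuramochi, 28 fell in OVCAR4 and none passed the test in OVCAR8. These counts and those by role below are from a fit without pairing. With the Kuramochi libraries taken as paired, 25 of the 42 passed the test in that line, against 20 here. HEATR1 alone rose, in Kuramochi, and its call was lost when any 1 of 4 libraries was left out. A gene is said to rise or fall where the Benjamini-Hochberg adjusted p of edgeR's quasi-likelihood test over all 22023 genes was under 0.05. Over all genes 12.8% fell and 14.4% rose in Kuramochi, 11.9% fell and 15.2% rose in OVCAR4, and 3.32% fell and 7.51% rose in OVCAR8, while the share of the 42 that fell was 45.2% in Kuramochi and 66.7% in OVCAR4. The 19 genes that fell in Kuramochi all fell in OVCAR4 too, which is 100% of the first list and 67.9% of the second. The same overlap over all genes is not given here, so whether that of the 42 is larger cannot be told. The median log2 fold change of the 42 was -0.42 in Kuramochi, -0.53 in OVCAR4 and -0.24 in OVCAR8, against 0.02, 0.04 and 0.02 over all genes tested. In OVCAR8 the lowest adjusted p among the 42 was 0.0607 in edgeR, with 12 genes at an unadjusted p under 0.05 and 2 genes that fell by DESeq2. The fitted change was negative for 35 of 42 genes in Kuramochi, 39 in OVCAR4 and 40 in OVCAR8. Over all 22023 genes it was negative for 10467, 10088 and 10283.

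These counts moved with the fit and with single libraries, and so did the shares of all genes that fell. With a block on the replicate number, by which the Kuramochi libraries were taken as paired, 24 fell in Kuramochi, 29 in OVCAR4 and 1 in OVCAR8. Of all genes 13.3%, 12.7% and 4.51% fell then. With each line fitted alone, 9 fell in Kuramochi, 28 in OVCAR4 and 10 in OVCAR8, where MYC rose. Those fits had 5.55%, 15.2% and 12.5% of all genes fall. Without the 3D replicate 4 of OVCAR8, 12 of the 42 genes fell in that line, where 7.63% of all genes fell, against 3.32% with it. In OVCAR4, 31 fell without the 3D replicate 42, and 16 fell without either the 3D replicate 4 or the 3D replicate 6. The shares of all genes were 11.1%, 5.5% and 5.76%. When libraries with nearly the same counts entered as 1 sample, 11 fell in OVCAR4, where 2.78% of all genes fell. In Kuramochi 13 genes fell without the 3D replicate 4, the 3D replicate 8, the plastic replicate 4 or the plastic replicate 8. Of all genes 8.47%, 7.56%, 6.24% and 9.98% fell then. Calls that held without any 1 of the 18 libraries numbered 9 of 20 in Kuramochi and 16 of 28 in OVCAR4.

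**Figure D1:**
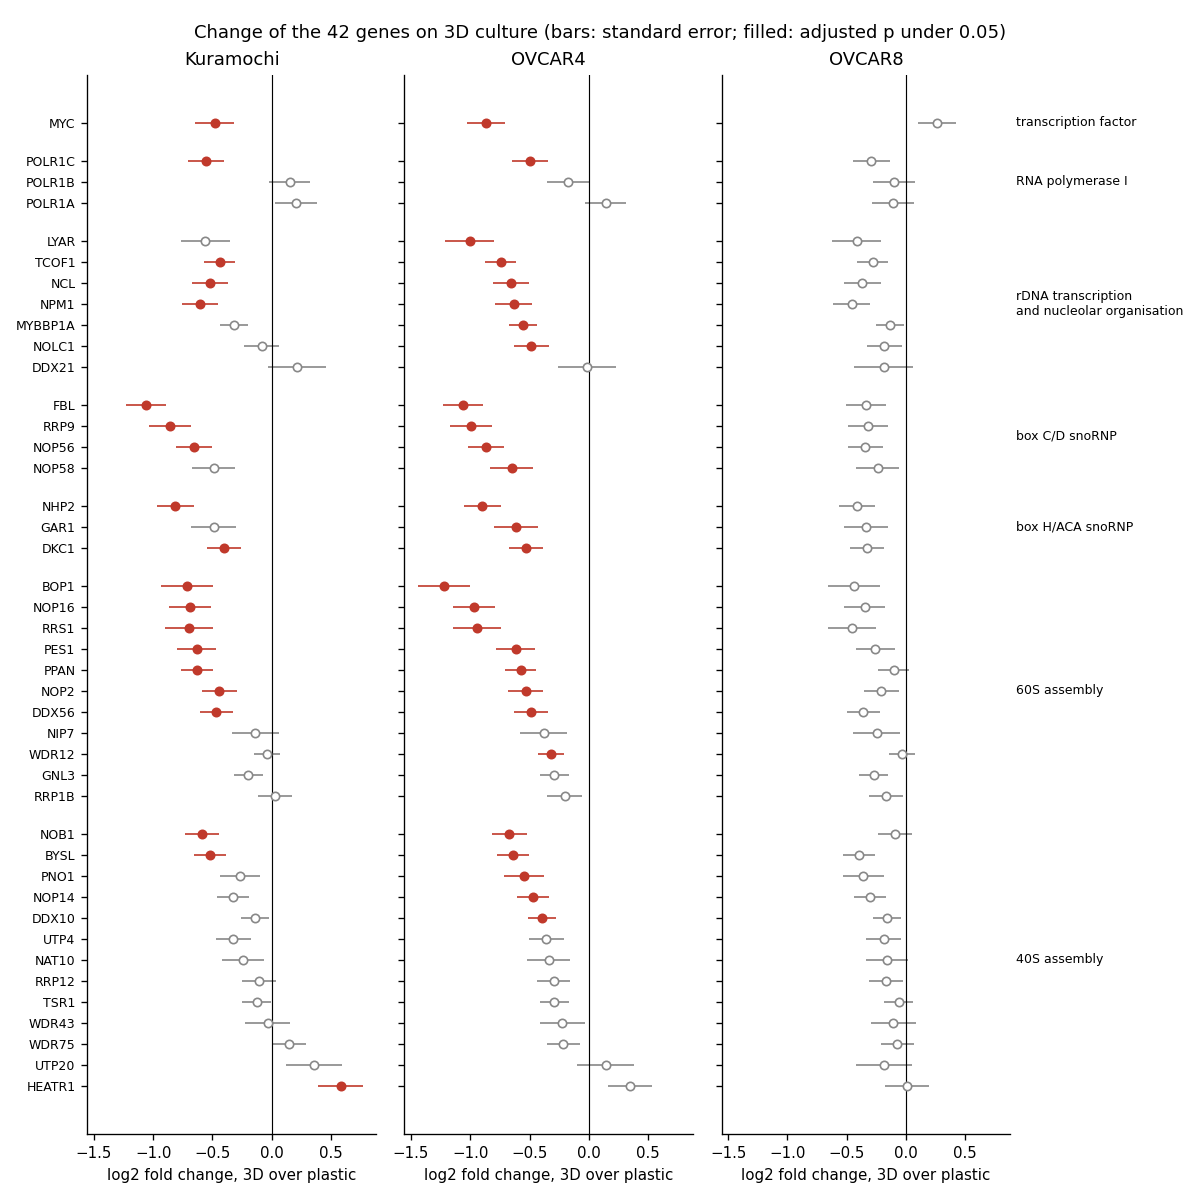
Log2 fold change on 3D culture over plastic of the 42 genes in Kuramochi, OVCAR4 and OVCAR8 (3 libraries per line and culture), grouped by role, with bars for the standard error and filled points for an adjusted p under 0.05. The filled points left of 0 number 19 in Kuramochi and 28 in OVCAR4, with none in OVCAR8, and FBL, RRP9 and NHP2 lie farthest to the left in Kuramochi.

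MYC, which dimerises with MAX and binds the E-box, fell on 3D culture in Kuramochi and OVCAR4 and did not pass the test in OVCAR8, where its level was above that on plastic. Kuramochi had it at 130, 94.5 and 113 CPM in 3D replicates 2, 4 and 8, against 179, 132 and 161 CPM on plastic. In OVCAR4 it was at 66.4, 42.8 and 42.5 CPM in 3D replicates 42, 4 and 6, against 93.3, 94.1 and 89.3 CPM on plastic. In OVCAR8 it was at 173, 153 and 157 CPM in 3D replicates 4, 61 and 62, against 141, 126 and 136 CPM on plastic. The cultures did not overlap in any line, although the highest 3D and lowest plastic library of Kuramochi were close. The log2 fold change was -0.48 ± 0.16 (SE, n = 3 per culture) in Kuramochi (edgeR adjusted p = 0.0340), -0.87 ± 0.16 in OVCAR4 (adjusted p = 0.00176) and 0.26 ± 0.16 in OVCAR8 (adjusted p = 0.315).

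The change of MYC differed between the lines by the test of both interaction contrasts (edgeR adjusted p = 0.0142), the one gene of the 42 to do so, where 6.17% of all genes did. That difference held without any 1 library (adjusted p of 0.00115 to 0.0468) but not with the close libraries as 1 sample (adjusted p = 0.188). The fall of MYC in OVCAR4 held without any 1 library, but 3D replicates 4 and 6 of that line had nearly the same counts. Leaving out either of them keeps the other, so this cannot show that the fall rests on separate cultures. In Kuramochi the adjusted p was 0.145 without the 3D replicate 4, 0.0854 without the 3D replicate 8, 0.0921 without the plastic replicate 2 and 0.0671 without the plastic replicate 8. In OVCAR8 the adjusted p was 0.0291 when that line was fitted alone.

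**Figure D2:**
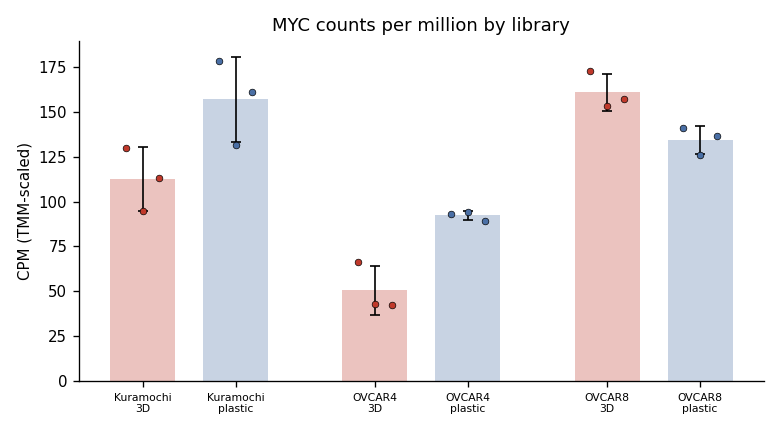
MYC in CPM (TMM-scaled) in the 18 libraries, 3D culture left of plastic in each line, with points for libraries, bars for the mean and error bars for the SD (n = 3). The 3D points lie below those on plastic in Kuramochi and OVCAR4 (the means are 112 against 157 and 50.6 against 92.2) and above them in OVCAR8 (161 against 135).

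MYC binds CACGTG, the palindromic E-box, and these letters stood in the promoter windows of many of the 42 genes. RefSeq windows (GRCh38.p14) of 250 bases before to 50 bases after the start site were at hand for 34 of them, and 16 of the 34 held the motif, which is 47.1%. The same letters were in the windows of 11.97% of 13324 genes tested here with a window and of 8.77% of all 27305 genes in the table, searched on 1 strand since the motif reads the same on both. The motif was present in 10 of the 22 genes with a window that fell in OVCAR4 and in 6 of the 12 that did not. A match of these letters is a description and no test of binding. All 16 lay within 64 bases before and 36 bases after a start site. Short stretches around it are printed for the 4 such genes with the smallest highest adjusted p over the lines, BYSL (chr6:41921515-41921544, plus strand), NOP14 (chr4:2963374-2963403, minus strand), LYAR (chr4:4290068-4290097, minus strand) and FBL (chr19:39846356-39846385, minus strand), to show where the motif sits. Its first base is 29 bases into the transcript of BYSL, 16 into that of NOP14 and 7 into that of FBL, and 64 bases before the start of LYAR. The E-box is in capitals, with 12 bases on either side.
BYSL: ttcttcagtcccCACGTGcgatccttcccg
NOP14: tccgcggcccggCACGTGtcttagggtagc
LYAR: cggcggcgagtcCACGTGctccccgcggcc
FBL: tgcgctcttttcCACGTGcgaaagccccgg

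Among the 3 subunits of RNA polymerase I on the list, POLR1C fell, a subunit that RNA polymerase III shares. Its log2 fold change was -0.55 ± 0.15 in Kuramochi (edgeR adjusted p = 0.0132) and -0.50 ± 0.15 in OVCAR4 (adjusted p = 0.0240), and -0.29 ± 0.15 in OVCAR8. The OVCAR4 call was lost without the 3D replicate 4 (adjusted p = 0.0803), the 3D replicate 6 (0.0929) or the plastic replicate 4 (0.0953), and that of Kuramochi without the plastic replicate 8 (0.0667). The catalytic subunits POLR1A and POLR1B did not pass the test in any line: the log2 fold changes of POLR1A were 0.21, 0.14 and -0.11, and those of POLR1B 0.15, -0.18 and -0.10, in Kuramochi, OVCAR4 and OVCAR8.

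Of 7 genes of ribosomal DNA transcription and nucleolar organisation, 3 fell in Kuramochi and 6 in OVCAR4. NPM1 encodes nucleophosmin, a chaperone of the outer nucleolus, and was the gene of the 42 with the highest level per transcript length in all 6 groups. The Kuramochi libraries had 1141, 1194 and 1323 CPM on 3D against 1643, 1693 and 2222 CPM on plastic, a log2 fold change of -0.60 ± 0.15 (edgeR adjusted p = 0.00834). In OVCAR4 it was at 1521, 1143 and 1111 CPM on 3D, replicate 42 first, against 2048, 1986 and 1828 CPM on plastic (-0.63 ± 0.15, adjusted p = 0.00678). In OVCAR8 it was at 2327, 1701 and 1742 CPM on 3D, replicate 4 first, against 2705, 2430 and 2793 CPM on plastic, -0.46 ± 0.15 with the lowest adjusted p of the 42 genes in that line, 0.0607. The cultures did not overlap in any line. The adjusted p in OVCAR8 was 0.0107 without the 3D replicate 4 and 0.0361 in a fit blocked on replicate number, and that of OVCAR4 was 0.0715 with the close libraries as 1 sample.

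TCOF1 encodes treacle, which brings RNA polymerase I and snoRNPs together on the ribosomal DNA. In OVCAR4 it was at 246, 187 and 182 CPM on 3D against 352, 334 and 342 CPM on plastic (-0.74 ± 0.13, edgeR adjusted p = 0.00129). Its Kuramochi levels were 155, 158 and 162 CPM on 3D against 207, 218 and 218 CPM on plastic (-0.44 ± 0.13, adjusted p = 0.0197), a call lost without the 3D replicate 4 (0.0542), the 3D replicate 8 (0.0509) or the plastic replicate 4 (0.0543). In OVCAR8 the log2 fold change was -0.28 ± 0.13 (adjusted p = 0.176). NCL encodes nucleolin, an RNA-binding protein of the nucleolus. It was at 881, 1137 and 1049 CPM in Kuramochi on 3D against 1263, 1449 and 1691 CPM on plastic, and at 575, 437 and 433 CPM in OVCAR4 on 3D against 795, 745 and 737 CPM on plastic. In OVCAR8, where 3D replicate 4 lay within the plastic range, its levels were 1169, 839.7 and 844 CPM on 3D against 1253, 1151 and 1277 CPM on plastic. NCL fell by 0.52 on the log2 scale in Kuramochi (adjusted p = 0.0182) and by 0.66 in OVCAR4 (adjusted p = 0.00574), and was at -0.37 ± 0.15 in OVCAR8. The Kuramochi call of NCL was lost without the 3D replicate 2 (0.0695) or the plastic replicate 8 (0.0666). LYAR, a nucleolar protein of growing cells, fell by 1.00 in OVCAR4 (adjusted p = 0.00303), and MYBBP1A by 0.56 (adjusted p = 0.00369). In Kuramochi their adjusted p were 0.0510 and 0.0539 without and 0.0387 and 0.0407 with a block on the replicate number. DDX21, a helicase of the nucleolus, had log2 fold changes of 0.21, -0.02 and -0.19 in the 3 lines, none past the test.

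Of 4 genes of box C/D snoRNPs, 3 fell in Kuramochi and 4 in OVCAR4, and FBL and RRP9 had the 2 most negative changes of the 42 genes in Kuramochi. FBL encodes fibrillarin, the methyltransferase of these particles. Kuramochi libraries had 221, 193 and 207 CPM on 3D against 332, 528 and 433 CPM on plastic, and in OVCAR4 at 199.6, 177 and 177 CPM against 319, 495 and 338 CPM. Its log2 fold change was -1.06 ± 0.17 in both lines (edgeR adjusted p = 0.000455 and 0.000640), and all 3D libraries were below all plastic ones. In OVCAR8 it was at 191, 153 and 157 CPM on 3D against 216, 206 and 209.9 CPM on plastic, also without overlap, with a log2 fold change of -0.34 ± 0.17 (adjusted p = 0.206). The difference of its change between the lines had an adjusted p of 0.0894.

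RRP9 encodes a protein of the U3 particle, the box C/D snoRNP that acts in cleavage of the precursor rather than its methylation. It was at 21.9, 18.4 and 22.3 CPM in Kuramochi on 3D against 29.4, 45.0 and 39.1 CPM on plastic (-0.86 ± 0.18, edgeR adjusted p = 0.00235). In OVCAR4 it was at 34.3, 25.2 and 25.3 CPM on 3D against 55.8, 63.7 and 49.2 CPM on plastic (-0.99 ± 0.18, adjusted p = 0.00127). NOP56, a core protein of the same class of particles, was at 178, 206 and 196 CPM in Kuramochi on 3D against 234, 336 and 342 CPM on plastic (-0.65 ± 0.15, adjusted p = 0.00452). In OVCAR4 it was at 201, 153 and 152 CPM on 3D against 294, 338 and 290.1 CPM on plastic (-0.87 ± 0.15, adjusted p = 0.00114). In both genes and both lines the cultures did not overlap. In OVCAR8 the log2 fold changes were -0.32 ± 0.17 for RRP9 (adjusted p = 0.243) and -0.34 ± 0.15 for NOP56 (adjusted p = 0.145). NOP58, the partner of NOP56, fell in OVCAR4 by 0.65 (adjusted p = 0.0149) but not without the 3D replicate 4 (0.0797) or the 3D replicate 6 (0.0715). In Kuramochi its log2 fold change was -0.49 ± 0.18, with an adjusted p of 0.0543 without and 0.0207 with a block on the replicate number.

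Of 3 genes of box H/ACA snoRNPs, 2 fell in Kuramochi and 3 in OVCAR4. NHP2, a core protein of these particles and of telomerase, was at 96.6, 72.7 and 85.8 CPM in Kuramochi on 3D against 118, 173 and 156 CPM on plastic (-0.81 ± 0.15, edgeR adjusted p = 0.00142). In OVCAR4 it was at 161, 138 and 141 CPM on 3D against 252, 321 and 244 CPM on plastic (-0.90 ± 0.15, adjusted p = 0.00100). In OVCAR8 it was at 146, 116 and 117 CPM on 3D against 169, 169.7 and 167 CPM on plastic (-0.41 ± 0.15, adjusted p = 0.0855, and 0.0312 without the 3D replicate 4). No 3D library reached a plastic one in any of the 3 lines. The NHP2 exons overlap RMND5B on the opposite strand over 28.0% of their bases, and the sources used here do not say whether counting used strand, so reads of the 2 genes may be mixed. DKC1 encodes dyskerin, the pseudouridine synthase of the particles. It fell by 0.40 in Kuramochi (adjusted p = 0.0436), a call that leaving out any of 10 single libraries took past the threshold (highest adjusted p of 0.144, without the plastic replicate 8), and by 0.53 in OVCAR4 (adjusted p = 0.0126), lost without the 3D replicate 4 (0.0739) or the 3D replicate 6 (0.0702). In OVCAR8, DKC1 was at 217, 173 and 176 CPM on 3D against 241, 226 and 245 CPM on plastic, without overlap (-0.33 ± 0.14, adjusted p = 0.141).

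**Figure D3:**
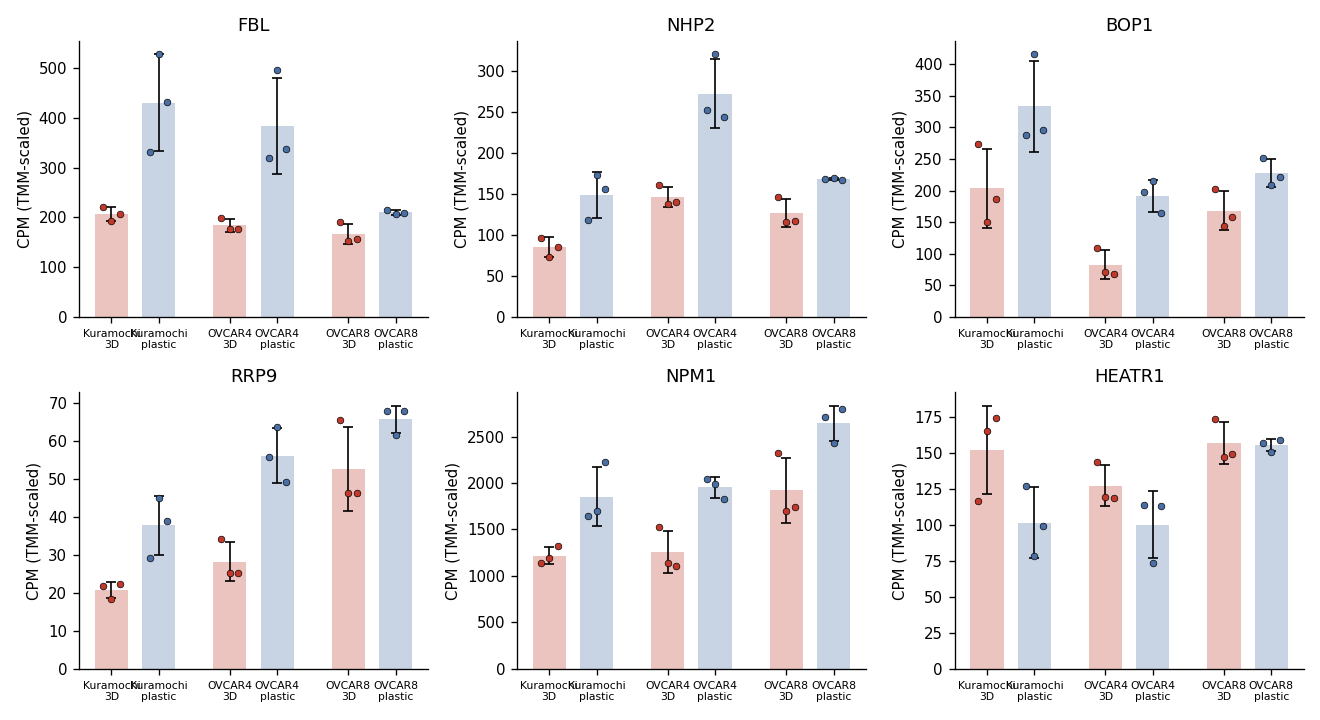
Levels in CPM (TMM-scaled) of FBL, NHP2, BOP1, RRP9, NPM1 and HEATR1 in the 18 libraries, 3D culture left of plastic in each line, with points for libraries, bars for the mean and error bars for the SD (n = 3). FBL, NHP2 and NPM1 are lower in every 3D library than in any plastic library of the same line, while HEATR1 shows overlapping points in Kuramochi.

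Among 11 assembly factors of the 60S subunit, 7 fell in Kuramochi and 8 in OVCAR4. BOP1 forms the PeBoW complex with PES1 and WDR12, which is needed for cutting the precursor of the large subunit RNA. It had the largest fall of the 42 genes in OVCAR4, at 109, 70.5 and 67.6 CPM on 3D against 197, 215 and 165 CPM on plastic (-1.22 ± 0.22, edgeR adjusted p = 0.00148). In Kuramochi it was at 273, 150 and 187 CPM on 3D against 288, 417 and 296 CPM on plastic (-0.71 ± 0.22, adjusted p = 0.0223), a call lost without the 3D replicate 4 (0.109), the 3D replicate 8 (0.0834) or the plastic replicate 4 (0.125). PES1 fell by 0.63 in Kuramochi (adjusted p = 0.00923) and by 0.62 in OVCAR4 (adjusted p = 0.0112), calls lost without the plastic replicate 4 of Kuramochi (0.0524) and without the 3D replicate 4 (0.0614) or 6 (0.0566) of OVCAR4. WDR12 fell by 0.32 in OVCAR4 (adjusted p = 0.0381) and was at -0.04 ± 0.11 in Kuramochi. Its call was lost when any 1 of 7 libraries was left out (highest adjusted p of 0.155, without the 3D replicate 6). Whether the changes of the 3 genes differ from each other was not tested.

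NOP16, a nucleolar factor of large-subunit assembly, was at 69.4, 47.4 and 49.0 CPM in OVCAR4 on 3D against 101, 122 and 101 CPM on plastic (-0.97 ± 0.18, edgeR adjusted p = 0.00148). In Kuramochi it was at 44.7, 43.8 and 51.5 CPM on 3D against 58.2, 81.4 and 85.8 CPM on plastic (-0.69 ± 0.18, adjusted p = 0.00842). PPAN, the human counterpart of the yeast factors Ssf1 and Ssf2, was at 23.5, 23.5 and 24.4 CPM in Kuramochi on 3D against 31.4, 41.1 and 38.0 CPM on plastic (-0.63 ± 0.13, adjusted p = 0.00282). In OVCAR4 its log2 fold change was -0.57 ± 0.13 (adjusted p = 0.00515). PPAN shares 47.6% of its exon bases with the readthrough gene PPAN-P2RY11 on the same strand, which makes its counts uncertain. DDX56, a helicase of large-subunit assembly, fell in Kuramochi (-0.47, adjusted p = 0.0204) and in OVCAR4 (-0.49, adjusted p = 0.0167). Each of these calls was lost when any 1 of 3 libraries was left out. In OVCAR8, DDX56 was at 86.6, 64.4 and 63.8 CPM on 3D against 94.2, 89.8 and 91.8 CPM on plastic (-0.36 ± 0.14, adjusted p = 0.104, and 0.0155 without the 3D replicate 4). GNL3, or nucleostemin, NIP7 and RRP1B did not pass the test in any line, with log2 fold changes between -0.38 and 0.03.

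Of 13 assembly factors of the 40S subunit, 2 fell and 1 rose in Kuramochi and 5 fell in OVCAR4. The 2 that fell in Kuramochi were BYSL and NOB1. BYSL, or bystin, was at 44.8, 40.5 and 45.1 CPM in Kuramochi on 3D against 51.0, 67.1 and 68.5 CPM on plastic (-0.52 ± 0.13, edgeR adjusted p = 0.00962), and at 30.4, 24.1 and 25.1 CPM in OVCAR4 on 3D against 41.1, 44.5 and 38.4 CPM on plastic (-0.64 ± 0.14, adjusted p = 0.00342). In OVCAR8 it was at 48.6, 39.5 and 38.4 CPM on 3D against 57.6, 51.5 and 57.2 CPM on plastic (-0.40 ± 0.13, adjusted p = 0.0641, and 0.0195 without the 3D replicate 4). No 3D library overlapped a plastic one in any line. NOB1, the nuclease that makes the mature end of the small subunit RNA, was at 33.2, 34.3 and 37.5 CPM in Kuramochi on 3D against 41.6, 55.0 and 60.9 CPM on plastic (-0.59 ± 0.15, adjusted p = 0.00710). It fell by 0.67 in OVCAR4 (adjusted p = 0.00381) and was at -0.09 ± 0.14 in OVCAR8. NOB1 exons overlap NQO1-DT on the opposite strand over 20.4% of their bases.

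HEATR1, the human counterpart of yeast Utp10 in the early small-subunit processome, was the gene that rose. It was at 117, 165 and 174 CPM in Kuramochi on 3D against 127, 78.1 and 99.3 CPM on plastic, so that 3D replicate 2 lay within the plastic range. Its log2 fold change was 0.58 ± 0.19 there (edgeR adjusted p = 0.0286), 0.35 ± 0.19 in OVCAR4 (adjusted p = 0.178) and 0.01 ± 0.19 in OVCAR8. The Kuramochi call was lost without the 3D replicate 4 (0.0931), the 3D replicate 8 (0.126), the plastic replicate 4 (0.157) or the plastic replicate 8 (0.0852). With the trend of transcript length removed, the log2 fold change was 0.08 (adjusted p = 0.712). Its exons overlap LGALS8 on the opposite strand over 23.1% of their bases. UTP20, another early factor and among the longest transcripts, was at 0.36 ± 0.24 in Kuramochi, 0.14 ± 0.24 in OVCAR4 and -0.19 ± 0.24 in OVCAR8, none past the test.

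The signed log2 fold change was higher in longer transcripts, both in the 42 genes and in all genes. Over the 42, the Spearman correlation of the log2 fold change with the length of the canonical transcript was 0.79 in Kuramochi, 0.68 in OVCAR4 and 0.65 in OVCAR8 (n = 42 genes from the same libraries), and over 16320 genes at 1 CPM or more it was 0.47, 0.46 and 0.20. In Kuramochi the median of all genes was -0.31 up to 2000 bases and 0.34 over 4000 bases. Of the 42, 11 of 15 up to 2000 bases fell in Kuramochi where 30.6% of all such genes did, 7 of 16 from 2000 to 4000 bases where 13.6% did, and 1 of 11 over 4000 bases where 4.10% did. In OVCAR4 the counts were 14 of 15 against 28.2%, 11 of 16 against 13.1% and 3 of 11 against 3.99%. Among libraries, plastic replicate 4 of Kuramochi and plastic replicate 4 of OVCAR4 leaned most to short transcripts (Spearman correlation of the level against the line mean with length of -0.51 and -0.56).

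With a smooth trend of length removed from each library, an alternative chosen after the data were seen, 17 of the 42 fell in Kuramochi, 32 in OVCAR4 and 10 in OVCAR8, where 12.6%, 13.5% and 11.1% of all genes fell, and none rose. Of the genes that fell before, 13 in Kuramochi and 26 in OVCAR4 fell again. The genes BYSL, NCL, NHP2, NOP14, NOP56, POLR1A and TCOF1 then fell in all 3 lines. NOP14 exons overlap NOP14-AS1 on the opposite strand over 20.7% of their bases. FBL kept log2 fold changes of -0.81 ± 0.12 in Kuramochi and -0.86 ± 0.12 in OVCAR4 (edgeR adjusted p = 0.000371 and 0.000336), whereas NPM1 was at -0.41 ± 0.16 with an adjusted p of 0.0742 in Kuramochi. MYC was at -0.65 in Kuramochi and -1.05 in OVCAR4 (adjusted p = 0.0102 and 0.000530) and at 0.12 in OVCAR8 (adjusted p = 0.650), and its difference between lines had an adjusted p of 0.0105. The long gene POLR1A was at -0.42, -0.49 and -0.39 with adjusted p of 0.0299, 0.0131 and 0.0484, against 0.21, 0.14 and -0.11 without the length term.

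**Figure D4:**
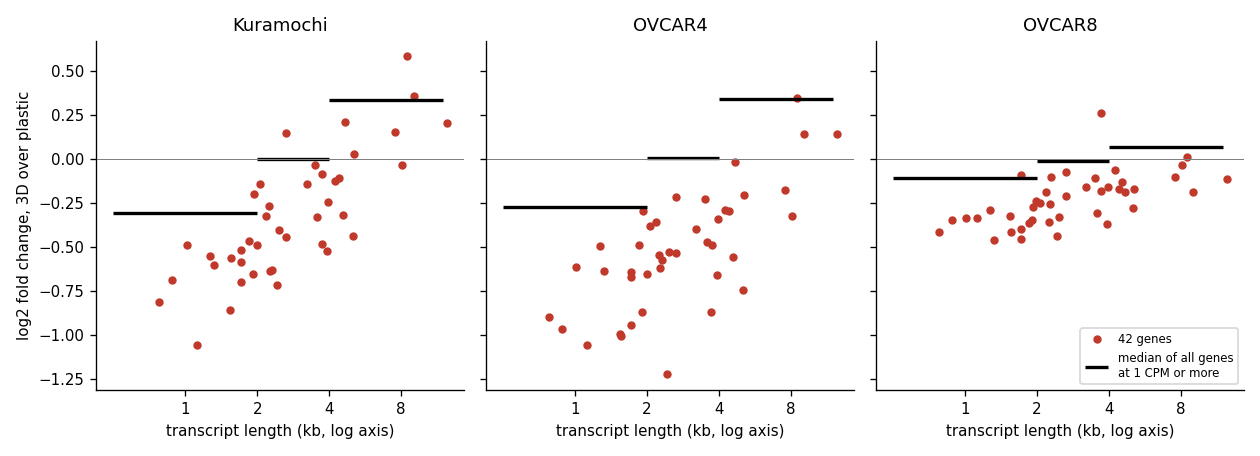
Log2 fold change on 3D culture over plastic against transcript length (kb, log axis) in Kuramochi, OVCAR4 and OVCAR8; points are the 42 genes and horizontal lines the median of all genes at 1 CPM or more up to 2, from 2 to 4 and over 4 kb. The points climb with length in each line, and most points in Kuramochi and OVCAR4 lie below the line of their own length class.

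In OVCAR4 and OVCAR8 the 3D library with the lowest fibroblast sum had the highest level of the 41 genes other than MYC. The median log2 ratio of these 41 genes to the plastic mean of the line was -0.25 in OVCAR4 3D replicate 42, with 141 CPM of summed fibroblast markers. It was -0.61 and -0.66 in 3D replicates 4 and 6, with 1213 and 1181 CPM. In OVCAR8 it was 0.01 in 3D replicate 4, with 704 CPM, and -0.39 and -0.42 in 3D replicates 61 and 62, with 2958 and 2055 CPM. In each line this sets 1 library against 2 with nearly the same counts, and between those 2 the one with more fibroblast marker RNA had the higher level of the 41. In Kuramochi it was -0.46, -0.34 and -0.34 in 3D replicates 2, 4 and 8, with 1132, 583 and 1388 CPM. Fewer cells of a type and less RNA per cell cannot be told apart in bulk samples. The part of fibroblast RNA and of transcript length in the changes of the 42 genes was not tested, beyond the length alternative above.

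**Figure D5:**
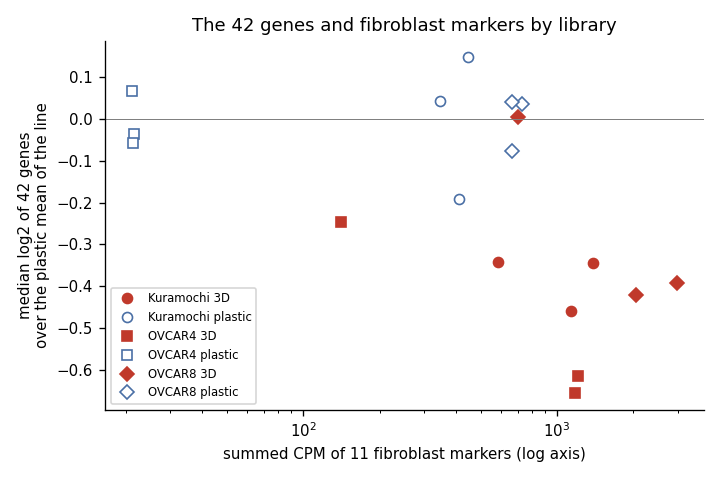
Median log2 ratio of the 41 genes other than MYC to the plastic mean of their line against the summed CPM of 11 fibroblast markers (log axis), 1 point per library, filled for 3D culture and open for plastic. The axis and title name 42 genes, but MYC was left out of the median. The 3D libraries with the highest median ratios are OVCAR8 replicate 4 (0.01, no fall) and OVCAR4 replicate 42 (-0.25). They have the lowest marker sums of their groups, 704 and 141 CPM.

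Per transcript length the same 5 genes stood highest in all 6 groups. NPM1 stood first at 924 CPM per kilobase in Kuramochi on 3D against 1404 on plastic, 954 against 1480 in OVCAR4 and 1457 against 2002 in OVCAR8. NCL, FBL, NHP2 and NOP56 took the next 4 places in each group, in differing order. UTP20, POLR1B, WDR12 and POLR1A took the last 4 in every group but Kuramochi on 3D, where PPAN (10.3 CPM per kilobase) stood below POLR1A and POLR1B, and they had 3.58 to 16.7 CPM per kilobase. Not divided by length, UTP20 had 38.9, 63.5 and 64.9 CPM in Kuramochi on 3D against 49.4, 34.6 and 46.6 on plastic, and 173, 110.0 and 114 in OVCAR8 on 3D against 155, 135 and 162 on plastic. WDR12 had 66.1, 82.1 and 79.9 CPM in Kuramochi on 3D against 77.6, 76.4 and 79.9 on plastic, and 54.5, 46.3 and 47.1 in OVCAR8 on 3D against 51.4, 48.3 and 51.4 on plastic. POLR1B had 33.4, 24.0 and 23.4 CPM in OVCAR4 on 3D against 34.6, 23.7 and 33.1 on plastic. In each of these comparisons the cultures overlapped. MYC stood at 19th place on 3D and 19th on plastic in Kuramochi, 32nd and 23rd in OVCAR4, and 18th and 26th in OVCAR8. These places carry no test.

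On plastic 22 of the 42 genes differed between Kuramochi and OVCAR4, 27 between OVCAR8 and OVCAR4 and 25 between OVCAR8 and Kuramochi. Over all 22023 genes tested, 13580, 15175 and 14902 differed, so the share among the 42 was no larger. Kuramochi over OVCAR4 was higher in 13 and lower in 9, where 31.6% and 30.1% of all genes were. OVCAR8 over OVCAR4 was higher in 23 and lower in 4, where 33.6% and 35.3% of all genes were. OVCAR8 over Kuramochi was higher in 21 and lower in 4, where 32.2% and 35.5% of all genes were. The genes higher in OVCAR8 than OVCAR4 included 10 of 13 factors of the 40S subunit and 6 of 7 of the nucleolar group, but 1 of 4 box C/D genes and 3 of 11 of the 60S factors.

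MYC on plastic was higher in Kuramochi than OVCAR4 by 0.77 ± 0.16 on the log2 scale (edgeR adjusted p = 0.000459) and higher in OVCAR8 than OVCAR4 by 0.54 ± 0.16 (adjusted p = 0.00589). OVCAR8 and Kuramochi differed by -0.22 ± 0.16 (adjusted p = 0.229). UTP20 was at 155, 135 and 162 CPM in OVCAR8 on plastic against 54.9, 31.5 and 49.2 CPM in OVCAR4, replicate 42 first, a log2 difference of 1.74 ± 0.24 (adjusted p = 4.32e-06). FBL went the other way, with a log2 difference between OVCAR8 and OVCAR4 of -0.87 ± 0.17 (adjusted p = 0.000163) and between OVCAR8 and Kuramochi of -1.03 ± 0.17 (adjusted p = 2.77e-05).

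Other genes of the pathway were counted from lists written for this work. Of 125 further genes of RNA polymerase I, snoRNPs, 40S and 60S assembly and the RNA exosome, 44 fell and 7 rose in Kuramochi, 59 fell and 2 rose in OVCAR4, and 5 fell and 0 rose in OVCAR8, where 12.8%, 11.9% and 3.32% of all genes fell. With the length trend removed, 40 fell and 1 rose in Kuramochi, 66 fell and 0 rose in OVCAR4, and 27 fell and 0 rose in OVCAR8, where 12.6%, 13.5% and 11.1% of all genes fell. EXOSC5, a subunit of the exosome that trims the precursor RNA, fell by 0.98 in Kuramochi (edgeR adjusted p = 0.000778) and by 1.16 in OVCAR4 (adjusted p = 0.000369). NLE1, a factor of 60S assembly, fell by 0.59 (adjusted p = 0.00528) and 0.85 (adjusted p = 0.000633) in the same lines. SNU13, a core protein of box C/D snoRNPs, fell by 0.64 (adjusted p = 0.00428) and 0.72 (adjusted p = 0.00251). Of the 12 genes of RNA polymerase I among the 125, 2 fell in Kuramochi, 5 in OVCAR4 and 0 in OVCAR8. Their median log2 fold changes were -0.0035, -0.12 and -0.15. With the length trend removed, 1 of the 12 fell and 1 rose in Kuramochi, 4 fell in OVCAR4 and 1 in OVCAR8. POLR1D, a polymerase subunit, fell by 0.47 and 0.55 in Kuramochi and OVCAR4 and was at 0.06 in OVCAR8. Its change differed between the lines (adjusted p = 0.0367).

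Of 16 long RNA genes that host snoRNAs, 12 fell in Kuramochi, 12 in OVCAR4 and 1 in OVCAR8, with no rise; with the length trend removed 9, 10 and 4 fell. The one in OVCAR8 was DANCR, which fell by 0.61 in Kuramochi (edgeR adjusted p = 0.0148), by 1.00 in OVCAR4 (adjusted p = 0.00111) and by 1.70 in OVCAR8 (adjusted p = 5.04e-06), and differed between the lines (adjusted p = 0.0268). Of 22 textbook targets that MYC activates, 11 fell and 1 rose in Kuramochi, 14 fell and 1 rose in OVCAR4, and 2 fell and 1 rose in OVCAR8. With the length trend removed, 10 of the 22 fell in Kuramochi, 16 in OVCAR4 and 7 in OVCAR8. The shares of all genes that fell are those given above for the 125 genes. IMPDH2, which makes guanine nucleotides, fell by 0.65 in Kuramochi (adjusted p = 0.000426) and 0.84 in OVCAR4 (adjusted p = 0.000115) and was at -0.22 in OVCAR8 (adjusted p = 0.176), with a difference between lines (adjusted p = 0.0329). Of 4 genes that MYC represses, CDKN2B and NDRG1 rose in OVCAR4 by 1.45 (adjusted p = 0.00127) and 1.48 (adjusted p = 0.00233) on the log2 scale, and none of the 4 passed the test in Kuramochi, where CDKN2B and NDRG1 were at 0.70 (adjusted p = 0.0505) and 0.67 (adjusted p = 0.0859). In OVCAR8 these were at -0.37 and -0.45, neither past the test, and both differed between the lines (adjusted p = 0.0130 and 0.0204). The other genes of the 4, CDKN1A and GADD45A, went the other way in Kuramochi and OVCAR8. Both were negative in Kuramochi (lowest -0.74) and both positive in OVCAR8 (highest 0.53). In OVCAR4 1 of them was negative (-0.03) and the other was positive, as CDKN2B and NDRG1 were. Neither passed the test in any line. Among 12 genes of the MYC and MAX network, 3 rose and 1 fell in Kuramochi, 2 rose and 1 fell in OVCAR4, and 1 rose and 1 fell in OVCAR8.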

How the data were processed

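RNA of 18 libraries was sequenced after a stranded poly(A) preparation. The submitters' processing notes and the study's methods name Trimmomatic 0.33, TopHat2 2.1.0, GRCh38 and HTSeq, and do not say whether strand was used in counting. The authors deposited raw gene counts, 28415048 to 43142540 per library. Of the 58288 gene IDs, 57532 matched a symbol in GENCODE, with 99.75% of all counts.

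All libraries entered 1 model of 6 groups in edgeR (4.0.16, on R 4.3.3 and limma 3.58.1), by the robust quasi-likelihood method with TMM factors (0.944 to 1.12), filterByExpr (count minimum 10, total minimum 15) and Benjamini-Hochberg adjustment over 22023 genes, called under 0.05. The p-values rest on the spread between the 3 libraries within each group, pooled over the 6 groups and moderated across genes. Libraries of 1 line therefore bear on the calls of another. The fit was tested on simulated data.

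The members and lists were chosen with earlier results of these data known. Values per library are given for MYC, the 6 members of each line with the smallest adjusted p, members called against the main direction or differing between lines, and those highest and lowest per length; from other lists the rule took the genes with the smallest adjusted p, and further genes were named after their values were seen. Deviations of same-numbered Kuramochi libraries correlated at 0.17, 0.13 and 0.28 (replicates 2, 4 and 8), and those of differently numbered ones at 0.03 at most. The same-numbered ones were taken as paired in an alternative fit with a block, while the main values are from the fit without it. The others were RLE factors, DESeq2 1.42.0, no filter, a 2-fold minimum, close libraries as 1 sample, separate fits, each library left out, and the removal of length or length and GC trends.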

Additional observations from a re-analysis of the deposited data

Results flagged for a closer look

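The change of MYC on 3D culture differed between the lines by the test of the interaction in edgeR (adjusted p = 0.0142). The log2 fold change was -0.48 in Kuramochi, -0.87 in OVCAR4 and 0.26 in OVCAR8. All 3 libraries of each 3D group lay on the same side of all 3 plastic libraries of their line. In Kuramochi the highest 3D and lowest plastic library were close, at 130 and 132 CPM. The 3D replicates 4 and 6 of OVCAR4 had nearly the same counts, as did 61 and 62 of OVCAR8. With such close libraries as 1 sample, the difference between the lines did not pass the test. The test covers all lines together and does not say which of them differ.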

How the results depend on the processing

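Counts of the 42 genes past the threshold depended on the settings as follows. With a 2-fold minimum, 1 fell and 0 rose in Kuramochi, 3 fell in OVCAR4, and on plastic 4 were higher and 0 lower in Kuramochi over OVCAR4, 8 and 0 in OVCAR8 over OVCAR4, and 5 and 1 in OVCAR8 over Kuramochi. With close libraries as 1 sample, which leaves fewer samples, 0 rose in Kuramochi, 11 fell in OVCAR4 and 0 differed between the lines. With separate fits, 0 rose and 9 fell in Kuramochi, and 1 rose (MYC) and 10 fell in OVCAR8. DESeq2 gave 2 that fell in OVCAR8 and 2 that differed between the lines. With no filter 4 differed, and OVCAR8 was lower than OVCAR4 in 7 and than Kuramochi in 6. With the length trend removed, 0 rose in Kuramochi and 10 fell in OVCAR8; with length and GC trends removed, 0 rose in Kuramochi, 13 fell in OVCAR8, OVCAR8 was lower than OVCAR4 in 2, and HEATR1 in Kuramochi was at -0.00025. The shares of all genes that fell moved too. In OVCAR8 they were 12.5% with separate fits, 4.83% by DESeq2 and 13.8% with length and GC trends removed. Where no value above shows it, the cause was not tested.

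The replicate block gave 24 that fell and 1 that rose in Kuramochi, 29 that fell in OVCAR4 and 1, NPM1, in OVCAR8, and moved no other count by more than 1.5 times. Same-numbered libraries of OVCAR4 correlated at 0.32, 0.09 and 0.15 and those of OVCAR8 at 0.10, 0.11 and -0.08. In OVCAR4 the 3D replicate 6 correlated more with the plastic replicate 4, at 0.17. In OVCAR8 the 3D replicate 62 did so with the plastic replicate 61, at 0.12, so numbers were not taken to pair these 2 lines. Leaving out each library gave 13 to 23 that fell and 0 to 1 that rose in Kuramochi, 16 to 31 that fell in OVCAR4, 0 to 12 that fell in OVCAR8 and 1 to 4 that differed between lines. Of all genes, 6.24% to 16.3% then fell in Kuramochi, 5.5% to 13.6% in OVCAR4 and 0.749% to 7.63% in OVCAR8. On plastic the ranges were 10 to 13 higher and 6 to 9 lower for Kuramochi over OVCAR4, 20 to 24 and 4 to 7 for OVCAR8 over OVCAR4, and 18 to 21 and 3 to 6 for OVCAR8 over Kuramochi. No gene rose in OVCAR4 under any of these settings.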
